A study of Mus musculus with 16 samples.

Results

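The erythroid genes described here are Gata1, Klf1, Alas2, Epb42, Slc4a1, Hba-a1, Hbb-bt and Hbb-bs, 8 of the 21938 protein-coding genes of the GENCODE vM21 annotation of the mouse genome (build GRCm38). They were chosen by name, with earlier results of these data known. Open chromatin was mapped by ATAC-seq, which marks accessible DNA with adapters placed by the Tn5 transposase, in spleen, kidney, liver, lung, heart, muscle, white adipose and brown adipose of male C57BL/6 mice, aged 12 weeks when purchased, that were either fed or had been fasting for 24 h. Frozen tissue powder of 3 mice was pooled for each library, and there was 1 library per tissue and state, 16 in all, with no replicates and with the same mice behind all tissues of a state. The labels name no transgene and no drug, and the pools hold every cell type of a tissue, so fewer cells of a type and less open chromatin per cell cannot be told apart.

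Red blood cells are made from nucleated precursors, and in the adult mouse the red pulp of the spleen is a site of this process beside the bone marrow. GATA1, a zinc finger factor that binds GATA sequences, and KLF1, which binds CACCC sequences, switch on the genes of the red cell, among them the haem enzyme ALAS2, the membrane proteins band 4.2 (Epb42) and band 3 (Slc4a1), and the globin chains of haemoglobin. Mature mammalian red cells have no nucleus, so chromatin of this lineage comes from the precursors.

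For each gene, a promoter peak was a deposited peak whose summit, its point of highest signal, lay within 3000 bp of an annotated start. The promoter rank is the percentile of the best such peak by -log10 p among all rows of its library, from 100 for the strongest row to 0 where none was listed. A peak was called where q was under 0.01, and gene-body peaks were called peaks with a summit in the gene extended by 10 kb on each side. The lists held 298996 to 299529 rows each. Depth is not stated, but the background solved from fold and p was 2.8 to 12.77 tags, with 3.2 in fed and 3.35 in fasting spleen, so that a spleen peak over the background needed 11 tags (fed) or 12 tags (fasting) to be listed. A rank of 0 means that no row was among those listed. In libraries whose list ended before q reached 0.01, fasting spleen among them, a peak with q under 0.01 may have been left out. The spleen label was checked against other cell types of the organ. The B cell markers Cd79a and Ms4a1, and 3 of 5 red pulp macrophage markers (Spic, Cd163 and Adgre1), had higher promoter ranks in both spleen libraries than in all 14 others, against 9.32% of all genes. The B cell markers Pax5 (88.3 fed and 91.0 fasting, against at most 92.1) and Cd79b (91.0 and 86.7, against at most 90.7) did not. Neither did the macrophage markers Hmox1 and Slc40a1, which in spleen differed by -6.5 and -10.2 points from the mean of the other tissues.

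Sequences are shown for the 2 beta-globin genes, whose promoter ranks separated spleen most, with GATA and CACCC letters in capitals. Promoters of 300 bases (250 before the start and 50 after it) came from RefSeq (GRCm38.p6), which held 7 of the 8 genes. The box nearest to the start and the GATA sequence of Hbb-bs lay 93 and 210 bases before its RefSeq start, and the CACCC of Hbb-bt 89 bases before its own. Both genes lie on the minus strand, and each stretch is written 5′ to 3′ on the strand of the gene.
Hbb-bs, chr7:103828003-103828032: attccgtagagCCACACCCtggtaagggcc
Hbb-bt, chr7:103813995-103814024: cctgcagggtaaCACCCtggcattggccaa
Hbb-bs, chr7:103828121-103828150: tgttctctgcacAGATAAggacaaacatta
The letters AGATAA were present on either strand in 3 of the 7 promoters (Alas2, Epb42 and Hbb-bs) and in 11.2% of all 32851 RefSeq promoters. The letters CACCC were in 6 of 7 promoters against 57.5% of all, and CCACACCC, which holds CACCC, was in Hbb-bs alone of the 7 against 3.6% of all. In the haem enzyme gene Alas2, on the plus strand, the GATA letters stood on the opposite strand 86 bases before the start.
Alas2, chrX:150547319-150547348: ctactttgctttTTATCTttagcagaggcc

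The promoter ranks of the 8 genes did not share a pattern over tissues. Klf1 was near the top of all 16 lists, the beta-globin genes were high in spleen, Alas2 was high in liver, and Gata1, Epb42 and Slc4a1 were highest in kidney. The heat map of promoter ranks gives every value.

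**Figure D1:**
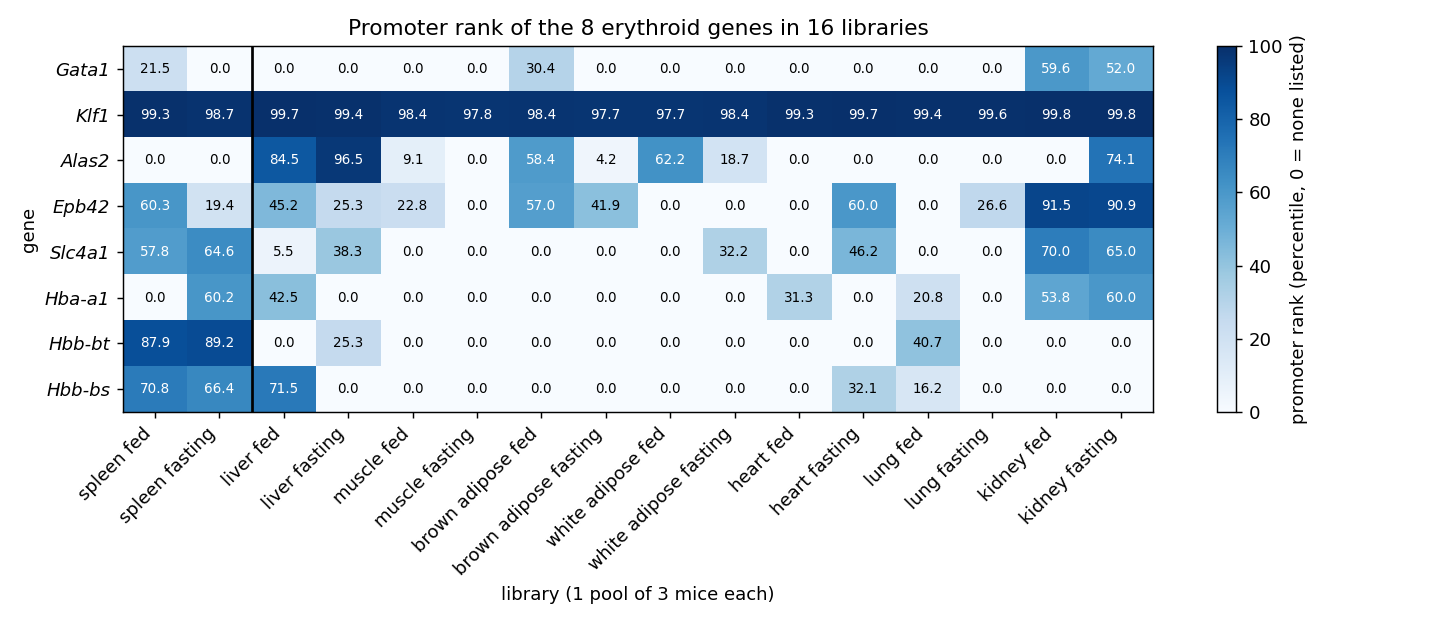
Promoter rank (percentile by -log10 p within a library, 0 where no peak was listed) of each gene (rows) in each of the 16 libraries (columns, 1 pool of 3 mice each), with the spleen libraries left of the line. Klf1 lies between 97.7 and 99.8 throughout, Hbb-bt stands at 87.9 and 89.2 in spleen and at 40.7 or lower elsewhere, and Alas2 is at 0 in both spleen libraries.

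Counted over the 8 genes, spleen did not stand out from the background of all genes. Both spleen libraries were above all 14 others for 1 gene of 8 (Hbb-bt), against 9.32% of the 19719 protein-coding genes with a promoter peak in any library. Both kidney libraries were above all others for 4 (Gata1, Klf1, Epb42 and Slc4a1; background 5.84%), with Klf1 ahead by less than a point, but for 1 (Epb42) with a window of 1000 bp, chosen for this count after values were seen. Both liver libraries were above all others for 1 (Alas2; background 6.1%), also with 1000 bp. Muscle, brown adipose, white adipose, heart and lung had 0 of 8, against 6.27%, 2.09%, 3.37%, 3.35% and 2.69% of all genes. The spleen count was 2 without liver, which added Hbb-bs, and 2 without kidney, which added Slc4a1.

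A promoter peak was called in both spleen libraries for 5 of 8 genes (Klf1, Epb42, Slc4a1, Hbb-bt and Hbb-bs), against 81.4% of all genes. Kidney also had 5 of 8 (81.1% of all genes), liver 3 (78.9%), brown adipose 2 (75.5%) and white adipose 2 (78.6%). Muscle (77.0%), heart (75.4%) and lung (80.4%) had 1 each, Klf1. The erythroid genes thus had fewer called promoters than the background share in every tissue. Gene-body peaks were more numerous in both spleen libraries than in all others for 1 gene (Hbb-bt; 6.38% of all genes) and in both kidney libraries for 2 (Epb42 and Slc4a1; 9.03%). The median difference between spleen and the other tissues was 11.1 points over the 8 genes and 0.0 over all genes.

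**Figure D2:**
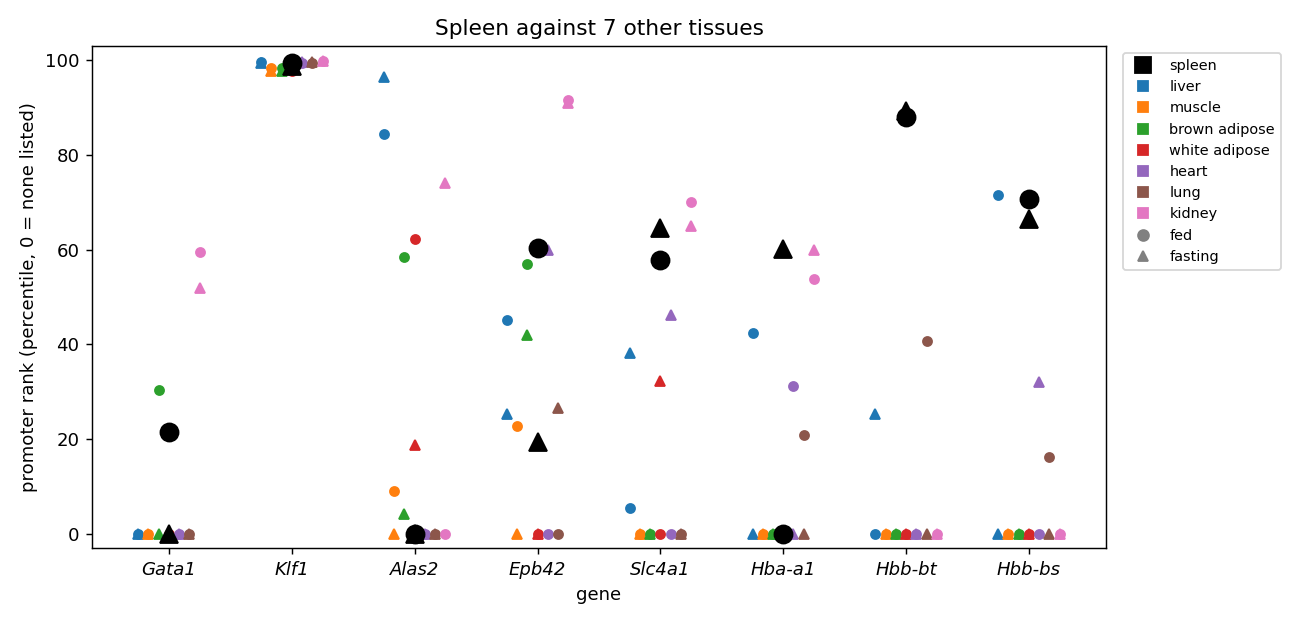
Promoter rank (percentile, 0 where no peak was listed) of each gene in spleen (large black symbols) and in 7 other tissues (small coloured symbols), with circles for fed and triangles for fasting libraries. Spleen stands clear of the other tissues at Hbb-bt, is level with fed liver (71.5) at Hbb-bs, lies below kidney at Slc4a1 and Epb42, and is at 0 for Alas2.

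Gata1 encodes the GATA-binding factor and lies at chrX:7959260-7978071 on the minus strand, with 3 annotated starts. Its promoter rank in spleen was 21.5 in the fed library, from a summit of 12 tags inside an intron, and 0 in the fasting library. Over the 14 other libraries the lowest and the median rank were 0 and the highest was 59.6, in fed kidney, with 52.0 in fasting kidney and 30.4 in fed brown adipose. Spleen thus lay within the range of the others, with a mean of 10.8 against 10.1 ± 20.9 (SD, n = 7 tissues), a difference of 0.6 points. An exact permutation test over which of the 8 tissues is called spleen gave a one-sided p = 0.375, and the smallest p this test allows is 0.125, so no gene could pass 0.05 by it.

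The strongest peak near Gata1 lay outside the promoter window, at chrX:7981374-7982090, with its best summit 3475 bp before the start. It was called in 7 libraries, in fed and fasting liver, brown adipose and kidney and in fed white adipose, with ranks from 52.6 to 83.9 and a median of 77.2. No spleen library listed a row there. The gene extended by 10 kb held 1 called peak in fed spleen and 0 in fasting spleen, against 0 to 8 in the others.

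Klf1 encodes the CACCC-binding factor and lies at chr8:84901928-84905291 on the plus strand. Its promoter rank was 99.3 in fed and 98.7 in fasting spleen, and 97.7 at the lowest, 99.35 at the median and 99.8 at the highest in the other libraries. The spleen mean of 99.0 and the mean of 98.9 ± 0.8 (SD, n = 7) elsewhere differed by 0.1 points (exact permutation p = 0.625, one-sided). These ranks came from a single region, chr8:84902557-84903798, called in all 16 libraries with its best summit 1287 bp after the start, in a coding exon.

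With a window of 1000 bp, which leaves out the best summit of this region but keeps summits on its flank 729 to 880 bp after the start, Klf1 was listed in neither spleen library, and in 12 of the 14 others at ranks of up to 54.3. Its neighbours Gcdh, a mitochondrial enzyme of lysine breakdown, and Dnase2a, the lysosomal nuclease that digests the nuclei shed by red cell precursors, each had a promoter peak inside the extended window in all 16 libraries. Counts of 12 and 14 gene-body peaks in spleen therefore include those of the neighbours.

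Alas2, the first and rate-limiting enzyme of haem synthesis in red cell precursors, lies at chrX:150547375-150570638 on the plus strand and overlaps Apex2. No promoter peak was listed in either spleen library. The ranks were 84.5 in fed and 96.5 in fasting liver, 74.1 in fasting kidney and 0 in fed kidney, and 62.2 in fed and 18.7 in fasting white adipose. They were 58.4 in fed and 4.2 in fasting brown adipose, 9.1 in fed muscle, and 0 in the remaining libraries of muscle, heart and lung. Both liver libraries lay above all others, and spleen was 29.1 points below the mean of 29.1 ± 32.3 (SD, n = 7) of the other tissues (exact permutation p = 1.0 for spleen higher, one-sided).

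The liver peaks of Alas2 included the start itself. At chrX:150547395-150547517, 10 bp before the nearest annotated start, a peak was called in both liver libraries and in no other library. Its ranks were 80.8 (fed) and 53.7 (fasting). The 300 bases at its summit held the GATA letters printed above, but these lay outside the peak, 118 bases before the summit. The higher liver ranks came from a coding exon at chrX:150552007-150552330, which was also called in fasting kidney, fed brown adipose and fasting white adipose. The 2 liver libraries were the only ones of the 16 with a row within 1000 bp of a start.

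Epb42 encodes band 4.2, which links band 3 to the membrane skeleton, and lies at chr2:121017891-121037072 on the minus strand with 7 annotated starts. Its promoter rank was 60.3 in fed and 19.4 in fasting spleen, and from 0 (median 25.95) to 91.5 in the others, with 91.5 and 90.9 in fed and fasting kidney. The spleen mean of 39.8 differed from 32.9 ± 30.6 (SD, n = 7) by 6.9 points (exact permutation p = 0.375, one-sided). The spleen peaks and the kidney peak were not at the same place. The kidney peak, in an intron at chr2:121022755-121023320, was called in 7 libraries of other tissues and in neither spleen library, while spleen had weak peaks of 12 to 18 tags, among them 1 of 15 tags at 4 bp from the start in the fed library. A region 4253 bp before the start, at chr2:121041164-121041504, was called in both spleen libraries (68.7 fed, 47.7 fasting) and in 6 others.

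Slc4a1 encodes band 3, the chloride and bicarbonate exchanger of the red cell, which acid-secreting cells of the kidney collecting duct also use. It lies at chr11:102348824-102366203 on the minus strand. Its promoter rank was 57.8 in fed and 64.6 in fasting spleen, above those of fasting heart (46.2), fasting liver (38.3), fasting white adipose (32.2) and fed liver (5.5), and below the 70.0 and 65.0 of fed and fasting kidney. The others were at 0. The spleen mean of 61.2 exceeded 18.4 ± 24 (SD, n = 7) by 42.8 points, and kidney was the only tissue with a higher mean (exact permutation p = 0.25, one-sided).

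The spleen peaks of Slc4a1 were weak and changed place between the pools. The best had 18 tags in the fed library, 2922 bp after a start, and 20 tags in the fasting library, 803 bp after a start. The kidney rank came from the flank of a stronger peak, chr11:102368903-102369764, whose best summit lay 3311 bp before the start, just outside the window, at ranks 95.2 and 93.3, and which was called in both kidney libraries and in no other. Farther upstream, at chr11:102375274-102376367, an intron of the long noncoding RNA gene Bloodlinc was called in all 14 libraries outside spleen, at ranks from 44.2 to 94.4, and no row was listed there in either spleen library. Such a loss was uncommon but not confined to this gene. Of 26037 merged regions called in all 14 other libraries, 1096 (4.21%) had no row in spleen, and the same share was 0.114% to 1.53% for the other 7 tissues.

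**Figure D3:**
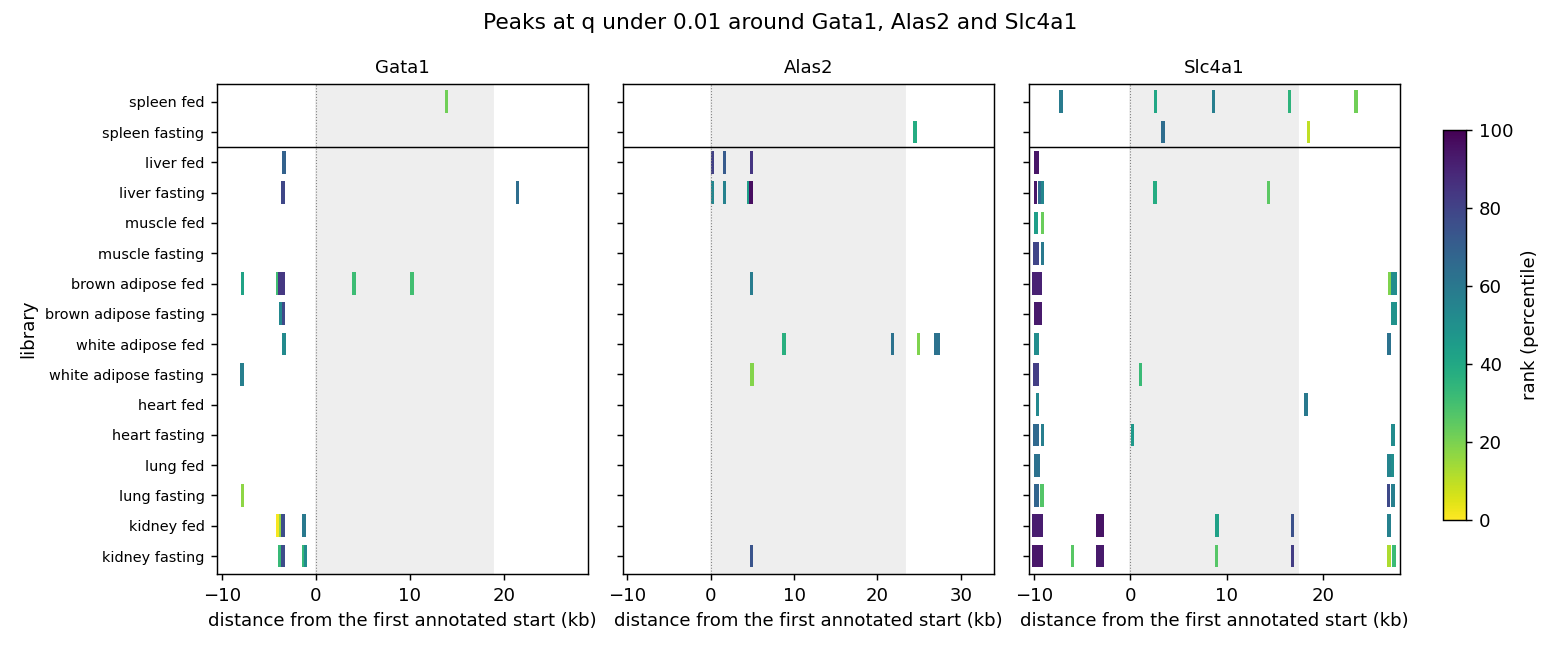
Called peaks (bars, coloured by rank in percentiles) around Gata1, Alas2 and Slc4a1 in the 16 libraries (rows), against the distance in kb from the first annotated start in the direction of transcription, with the gene body shaded and very narrow peaks widened to stay visible. The fasting spleen row is empty for Gata1 and holds 1 bar, beyond the gene body, for Alas2, Alas2 is marked in liver, and the region 9896 bp before Slc4a1 is filled in all 14 other rows.

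Hba-a1 encodes an adult alpha-globin chain and lies at chr11:32283511-32284465 on the plus strand. Its promoter rank in spleen was 0 (fed) and 60.2 (fasting), with 53.8 and 60.0 in fed and fasting kidney, 42.5 in fed liver, 31.3 in fed heart, 20.8 in fed lung and 0 in the rest. The spleen mean of 30.1 differed from 14.9 ± 20.4 (SD, n = 7) by 15.2 points (exact permutation p = 0.25, one-sided). The fasting spleen summit held 20 tags and lay 240 bp after the start. The kidney values belonged to a neighbour: their summits, 2743 and 2753 bp after the Hba-a1 start, were nearest to Hbq1b, a theta-globin gene, and both kidney ranks were 0 when peaks nearer to another coding gene were left out.

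The Hbq1b promoter, at chr11:32286471-32287457 and just outside the window of Hba-a1, was called in all 16 libraries. Spleen ranked 85.5 (fed) and 92.6 (fasting), and the others 68.5 to 93.6, so spleen did not stand apart there. A region 8773 bp after the Hba-a1 start reached its highest ranks in muscle (90.8 fed, 85.5 fasting) and was not listed in spleen.

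Hbb-bt, an adult beta-globin gene at chr7:103812524-103813996 on the minus strand, had the largest separation of spleen. Its promoter rank was 87.9 in fed and 89.2 in fasting spleen, 40.7 in fed lung, 25.3 in fasting liver and 0 in the other 12 libraries. Both spleen libraries lay above all others, and the spleen mean of 88.5 exceeded 4.7 ± 8.4 (SD, n = 7) by 83.8 points, with exact permutation p = 0.125 (one-sided), the smallest the design allows. Gene-body peaks numbered 8 in fed and 9 in fasting spleen and 0 to 2 elsewhere.

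The best peak of Hbb-bt was not at its start. It lay in a coding exon, at chr7:103812592-103812808, with 45 tags in fed and 47 in fasting spleen, 1304 bp after the start, and was called in no other library. A second region called in spleen alone lay upstream, at chr7:103815164-103815399, with its summit 1332 bp before the start and ranks of 82.7 (fed) and 69.9 (fasting). The merged region that reached the start, chr7:103813257-103814096, ranked 67.0 in fed and 69.4 in fasting spleen and was also called in fasting liver, at 25.3. Its best fed spleen summit lay 549 bp after the start, and its fasting spleen summit 17 bp after it.

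Hbb-bs, the neighbouring adult beta-globin gene at chr7:103826534-103828096 on the minus strand, had promoter ranks of 70.8 in fed and 66.4 in fasting spleen, 71.5 in fed liver, 32.1 in fasting heart, 16.2 in fed lung and 0 in the other 11 libraries. Fed liver thus overlapped spleen, while fasting liver was at 0. The spleen mean of 68.6 exceeded 8.6 ± 13.5 (SD, n = 7) by 60.1 points (exact permutation p = 0.125, one-sided). The merged region chr7:103827243-103828152, joined over both spleen libraries, fed liver and fed lung, spanned the Hbb-bs promoter stretches printed above. Its best fed spleen row, chr7:103827936-103828044, covered the CCACACCC stretch but ended before the AGATAA stretch. The fed liver rows in it ended before both the CCACACCC and the AGATAA letters. The best fed spleen summit, of 20 tags, lay 64 bp before the nearest annotated start. The best fed liver peak was a different region, at chr7:103828722-103828984, at which fed spleen had a rank of 53.3.

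**Figure D4:**
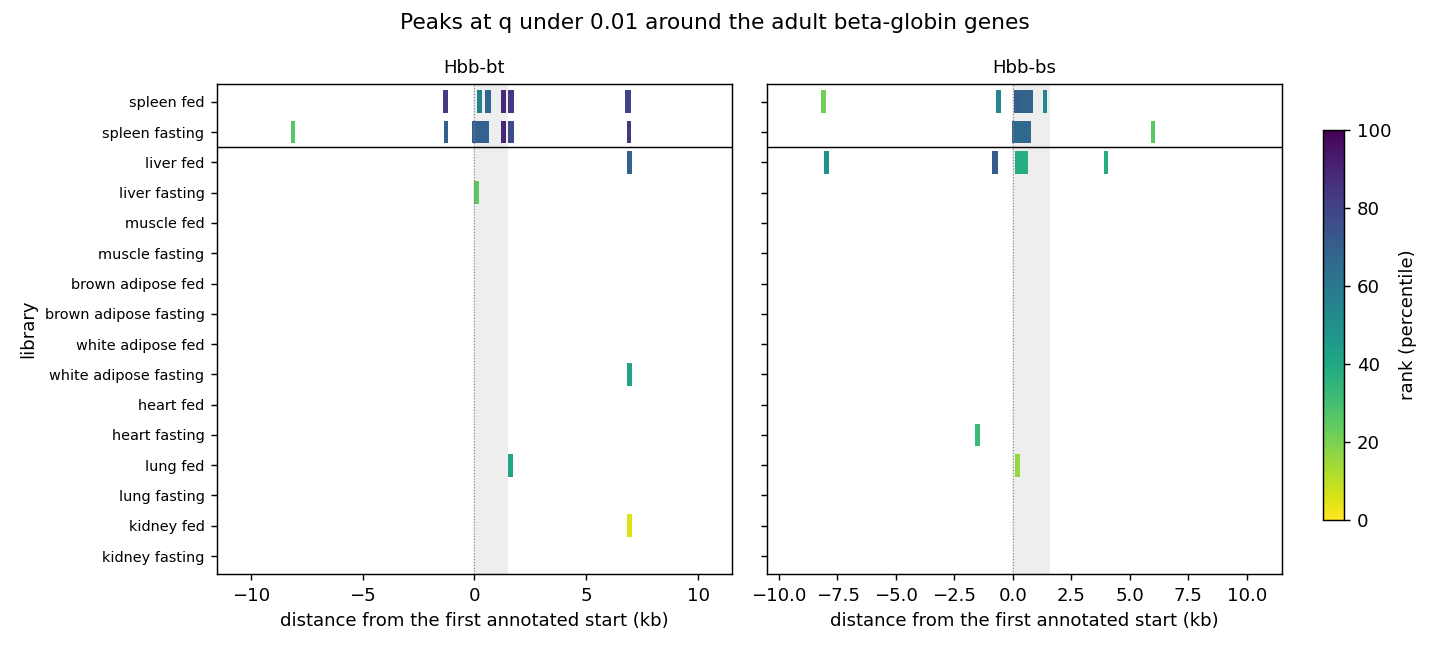
Called peaks (bars, coloured by rank in percentiles) around Hbb-bt and Hbb-bs in the 16 libraries (rows), against the distance in kb from the first annotated start in the direction of transcription, with the gene body shaded and very narrow peaks widened to stay visible. Both spleen rows hold peaks over and beside both genes, fed liver holds peaks at Hbb-bs, and the other rows hold at most 1 bar in either panel.

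Regions seen in spleen alone were called in both spleen libraries and overlapped by no row of another tissue. They were counted as rows of the fed spleen list, of which there were 16236 in the genome, so that neighbouring pieces of 1 region count separately. The extended body of Hbb-bt held 4. Of these, 2 were the coding exon and upstream peaks above. The other 2 were pieces of the merged region that reached the start, whose other end was called in fasting liver. At least 4 were held by 3.4% of the 20551 genes with any called gene-body peak. No other erythroid gene held any, so 1 of 8 had such a region against 32.3% of all genes. Within 100 kb, a distance chosen after values were seen, 5 of the 8 had at least 1 against 70.0% of all genes, and the 2 beta-globin genes shared the same 8, a number that 3.61% of genes reached. Of these 8, 3 lay upstream of both genes, on the side where the locus control region of the beta-globin cluster is known to lie. The strongest of them, at chr7:103861601-103861812, was 47711 bp from Hbb-bt, with ranks of 90.7 in fed and 79.3 in fasting spleen, and its summit window held the GATA letters on the strand opposite to the genes.
Upstream region, chr7:103861784-103861813: taccctgtttccTTATCTgacctgctttaa
The 300 bases at summits held AGATAA in 4 of the 11 spleen-alone regions within 100 kb of the 8 genes, and in 3 of the 14 regions in their gene-body windows that both spleen libraries called. Of all 202948 regions called in fed spleen, 11.2% held it. CACCC was in 9 of 11 and 8 of 14 against 59.7%, and CCACACCC in 1 of 11 and 1 of 14 against 4.0%.

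The globin genes have near-identical copies, and the sources used here do not say how reads with several equally good alignments were placed. Words of 32 bases that occur elsewhere in the genome made up 39.9% of the promoter window of Hbb-bt, 39.0% of that of Hba-a1 and 21.0% of that of Hbb-bs, against 4.2% to 13.2% for the other 5 genes. The share was 47.8% in the coding exon peak of Hbb-bt, 65.8% in its merged region that reached the start and 9.3% in its upstream peak. It was 63.1% in the peak of Hbb-bs and 43.0% in the Hbq1b promoter region. In the fasting spleen peak of Hba-a1, whose value is therefore uncertain, it was 98.4%. The part of repeated words in the ranks was not tested.

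Fasting was compared with feeding in each tissue, with the tissue as the pair. None of the 8 genes passed the test across tissues, an exact sign-flip permutation test, two-sided, with Benjamini-Hochberg adjustment (BH) over 19719 genes. No gene of the genome passed it (0.0% at BH under 0.05), with 1036 at an unadjusted p under 0.05 and a smallest BH value of 0.821. The smallest p this test can give with 8 tissues is 0.00781, so a BH value under 0.05 over so many genes was hardly within its reach. The largest mean difference was that of Slc4a1, at 30.8 in fasting and 16.7 in fed libraries, or 14.1 ± 19.7 points (SD, n = 8 tissues), higher in 4 tissues, lower in 1 and equal in 3 (exact permutation p = 0.125, BH 0.933). Gata1 had -7.4 ± 12 points, lower in 3 tissues and equal in 5 (exact permutation p = 0.25, BH 0.98). Hbb-bs had -7.5 ± 29.2 points (exact permutation p = 0.625, BH 1.0), and the other 5 genes had means between -3.5 and -0.1 points.

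In spleen the beta-globin genes were at nearly the same rank in both states, with 87.9 and 89.2 for Hbb-bt and 70.8 and 66.4 for Hbb-bs. The tags at the exon summit of Hbb-bt, relative to the background of each library, gave a ratio of fasting over fed of 0.998 with an exact 95% interval from 0.649 to 1.54. The ratio was 0.955 (0.479 to 1.91) at Hbb-bs, for summits 26 bp apart, 0.819 (0.654 to 1.02) at Klf1 and 1.51 (0.988 to 2.33) at Hbq1b. Of 16 pairs of overlapping peaks called in both spleen libraries, 12 had summits within 100 bp of each other, and the intervals of these 12, which cover counting error only, included 1. The genes whose spleen rank differed by 10 points or more were Hba-a1, higher in fasting (background 8.61% of genes), and Gata1 and Epb42, lower in fasting (background 10.5%). Their ranks rested on summits of 12 to 20 tags, close to the 11 or 12 needed for listing, and with 1 pool per state there is no replicate check of them.

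**Figure D5:**
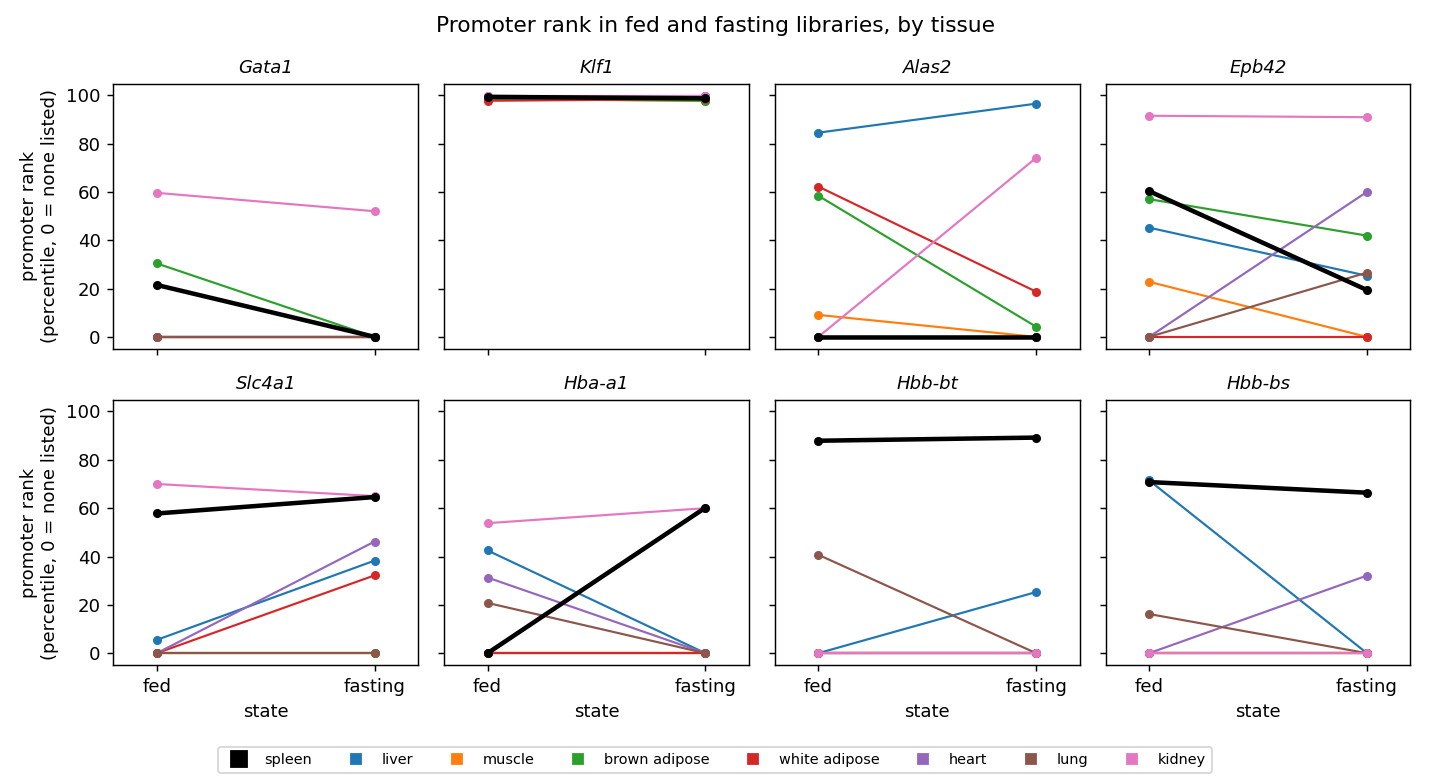
Promoter rank (percentile, 0 where no peak was listed) in fed and fasting libraries for each gene (panels), with 1 line per tissue and spleen in black. The spleen lines of Hbb-bt and Klf1 are nearly level. That of Slc4a1 goes from 57.8 to 64.6, from peaks in different places. That of Hba-a1 goes from 0 to 60.2 and that of Epb42 from 60.3 to 19.4, while other tissues move in both directions.

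Other genes of the red cell were counted from lists. Of 12 erythroid transcription factors and co-factors, 4 had both spleen libraries above all others (Gfi1b, Bcl11a, Myb and Runx1), against 9.32% of all genes, and all 12 had a called promoter peak in both, against 81.4%. Gfi1b, a repressor needed for red cells and platelets, ranked 96.7 in fed and 97.1 in fasting spleen, with 84.9 as the highest other value. Bcl11a, which silences fetal globin genes, ranked 97.6 and 97.2 against at most 94.7, and Myb, a factor of blood progenitors, 94.8 and 95 against at most 91.2. Gata2, the GATA factor of progenitors and mast cells, was lowest relative to the other tissues, at 48.3 and 53.4 against a mean of 86.2. B and T cells, which spleen holds, also use Bcl11a, Myb and Runx1, and the part of these cells was not tested.

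The list of 8 receptors and iron uptake genes had 0 above all others, against 9.32% of all genes. Kit, the stem cell factor receptor, differed by 1.8 points, Epor, the erythropoietin receptor, by 1.4, Tfrc, the transferrin receptor, by 1.3, and Slc11a2, an iron transporter, by -4.8. Of 8 other haem enzymes 1 was above all others (9.32% of all genes), Cpox, at 99.9 in both spleen libraries against at most 99.8. Alas1, the haem enzyme of other tissues, differed by 1.0 point and Fech by 0.1, and Alad was lowest at -4.7. These enzymes are used in every tissue.

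Of 12 red cell membrane genes 1 was above all others (9.32% of all genes), Ermap, a blood group protein, with 77.5 in fed and 73.0 in fasting spleen and 67.2 as the highest other value. The adducin gene Add2 had 56.7 and 56.8 in spleen against a mean of 21.0 and did not exceed all others, the highest of which was 68.8. Ank1, the ankyrin that anchors band 3, was lowest, at 79.7 and 57.7 in spleen and 9.1 points under the mean of the others, and Rhag had no promoter peak in any library. Among 7 other globin genes 0 were above all others (9.32% of all genes). Hba-x, an embryonic alpha-like chain, and Hba-a2, the copy of Hba-a1, differed by 15.2 and 11.3 points, Hbq1b by 7.4, and Hbq1a was lowest at -7.2. The embryonic gene Hbb-y had no promoter peak in any library. Over the lists, the median difference was 1.4 points for the factors, 0.6 for receptors and iron uptake, -0.5 for haem enzymes, 4.1 for membrane proteins and 4.3 for the other globins, beside 0.0 for all genes.

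Markers of other cell types that share GATA1 or sit beside red cell precursors were examined in the same way, with the same background of 9.32% of all genes for both spleen libraries above all others. The megakaryocyte marker Gp9, a subunit of the platelet receptor for von Willebrand factor, ranked 75.4 in fed and 82.1 in fasting spleen, with 67.6 as the highest other value, and Pf4, a platelet chemokine, 72.6 and 66.4 against at most 84.4. Of 5 mast cell markers 0 were above all others. Cpa3, Ms4a2 and Mcpt8 had no promoter peak in any library, and Fcer1a was at 0 in spleen and at most 5.5 elsewhere. The other marker, Hdc, ranked 90.6 in fed and 93.4 in fasting spleen, with 92.8 as the highest other value. The summed rank of the 5 was 92.0 in spleen against 51.5 to 92.1. Of 5 eosinophil markers 2 were above all others (Prg2 and Il5ra), with a summed rank of 271.4 against 11.4 to 191.4. The summed rank was 401.2 against 93.8 to 268.7 for T cell markers (2 of 5 above all others), 403.1 against 219.0 to 298.6 for red pulp macrophage markers, and 272.2 against 74.5 to 234.2 for neutrophil markers (1 of 5). Of 5 endothelial markers 2 were above all others, with a summed rank of 307.7 against 160.6 to 446.6. The part of these cell types in the ranks of the erythroid genes was not tested.

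The genes whose promoter ranks were most like each erythroid gene were found by Pearson's r over the 16 libraries, which share tissues and mice, and are given as a description. For Hbb-bt they were Rpl9-ps6 (0.991), Klrc1 (0.979) and Ms4a7 (0.979), for Hbb-bs Pdyn (0.982), Tacr3 (0.976) and Actrt2 (0.961), and for Hba-a1 Ifitm7 (0.921), 2900011O08Rik (0.921) and Vmn1r234 (0.884). For Alas2 they were Rnf138rt1 (0.925), Onecut1 (0.821) and Alb (0.82), of which Onecut1 and the albumin gene Alb are liver genes. For Slc4a1 they were Otop3 (0.897), Bsnd (0.86), a chloride channel subunit of the kidney, and Fam151a (0.851), and for Epb42 Trim61 (0.824), Gata1 (0.815) and Miox (0.807), a kidney enzyme. For Gata1 they were Irs4 (0.951), Krt20 (0.926) and Olfr1393 (0.924), and for Klf1 Tex261 (0.935), Lrrk1 (0.93) and Akr1c14 (0.916). No erythroid gene had another among its 3 most like genes except Epb42, which had Gata1.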

How the data were processed

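Adapters were trimmed by the authors and reads aligned to GRCm38 with Bowtie2. Duplicates, unmapped reads and mitochondrial reads were dropped, reads were shifted for Tn5, and MACS2 called the peaks. Tool versions are not given in the sources used here. The 300000 rows of smallest p were kept per library and blacklisted regions removed. The deposited columns used are the fold enrichment (a ratio) and -log10 p and -log10 q, each computed by the authors within a library and not scaled between libraries, so ranks were taken within each list. Tags at a summit were solved from fold and p, whole within 0.001 for 93.8% to 100.0% of rows.

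Starts came from GENCODE vM21. Tests were exact permutations over tissues, which share their mice, so p-values speak of these pools only. The test was tried on simulated data. The erythroid genes and the lists were chosen with earlier results of these data known. Named were the 8 genes, 3 genes of each list with the largest difference and the lowest (further members were chosen after their values were seen), the 3 most like genes and genes at counted peaks. Ahsp had no entry. Some list members are not reported here. Python 3.11.15, numpy 2.4.6, scipy 1.17.1 and pandas 2.3.3 were used.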

Additional observations from a re-analysis of the deposited data

Results flagged for a closer look

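For 5 of the 8 genes the fasting minus fed difference in promoter rank went up by 10 points or more in 1 tissue and down by 10 points or more in another. The distance between the largest rise and the largest fall was 128.3 points for Alas2 (74.1 in kidney, -54.2 in brown adipose), 100.9 for Epb42 (60.0 in heart, -40.9 in spleen), 102.7 for Hba-a1 (60.2 in spleen, -42.5 in liver), 66.0 for Hbb-bt (25.3 in liver, -40.7 in lung) and 103.6 for Hbb-bs (32.1 in heart, -71.5 in liver). Each tissue has 1 library per state, and these differences were not tested. The share of all genes that met the same rule is not given here, so the count does not set these genes apart.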

How the results depend on the processing

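The number of genes with both spleen libraries above all others was 1 and became 2 with rows of the same region taken as 1 (Slc4a1 added) and 2 with the spleen mean set against the highest tissue mean (Hbb-bs added), and ranged from 1 to 2 with each other tissue left out. The number with a promoter peak in both spleen libraries was 5 and became 4 with a window of 1000 bp. It became 3 at q under 1e-06 (Klf1, Hbb-bt and Hbb-bs). The number with more gene-body peaks in spleen was 1 and became 2 without extension, 2 with 5 kb and 2 with peaks nearest to the gene itself, and ranged from 1 to 2 with a tissue left out (2 without liver and 2 without kidney). Within 1000 bp, where flank summits of its main region stayed in, Klf1 in spleen was 31.6 points below the other tissues, and kidney was above all others for 1 gene in place of 4. Hbb-bt in spleen was 66.4 points above the other tissues with that window, in place of 83.8. All 104 alternative values of fasting minus fed kept their direction or moved by less than the spread. In spleen alone, fasting minus fed for Slc4a1 was 24.1 points within 1000 bp in place of 6.8. For Gata1 it was -34.0 with ranks by fold enrichment and -7.3 with ranks within the chromosome, in place of -21.5. The cause of these changes was not tested. No paired analysis by replicate number was possible because each group has 1 library, and depth limits ranks near 0.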
